A study of Mus musculus with 6 samples.

Results

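The genes described here encode the proteins of the sarcomere, the contractile unit of striated (heart and skeletal) muscle. They are 34 genes chosen by name: myosin heavy and light chains, myosin-binding proteins, sarcomeric actins, troponins, tropomyosins, filament-capping proteins, titin and proteins of the Z-disc and M-band. All 34 had at least 1 probe, 49 probes in all, among 20887 genes with a symbol and a probe on the array. Their signal was measured in mouse embryoid bodies, aggregates of embryonic stem cells that differentiate into a mixture of cell types. The stem cells were either wild type (WT) or carried a triple knockout of Tet1, Tet2 and Tet3 (TKO), which encode enzymes that oxidise methylated cytosine in DNA. Both genotypes were on a mixed 129/C57BL6 background. Cells spent 2 days in hanging drops and 8 more in suspension, all without LIF, the cytokine that keeps mouse stem cells undifferentiated, so RNA came from day 10 cultures. WT, the line TKO_26 and the line TKO_29 had 2 arrays each. The series calls the arrays of a line technical replicas and the TKO lines independent. The p-values of the line comparisons therefore measure differences between lines against the spread between arrays, and WT is 1 line.

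In a sarcomere, thick filaments of myosin pull on thin filaments of actin. Troponin and tropomyosin sit on the thin filament and open it to myosin when calcium rises. Titin spans from the Z-disc, where thin filaments are anchored, to the M-band, where thick filaments are cross-linked. Many of these proteins come in isoforms encoded by separate genes, used in atrial or ventricular heart muscle, in slow or fast skeletal muscle, or in the embryo before the adult form takes over. The embryonic heart also uses several genes that the adult knows as skeletal, and embryoid bodies are known to form patches of beating heart muscle.

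From 38.4% to 55.8% of the spots of an array were well above background, and from 812 to 2528 spots per array were saturated. Repeated spots of a probe varied the most on TKO_26 replicate 1, by a median of 10.6% (coefficient of variation), against 4.26% to 5.78% on the other 5 arrays. Of the deleted genes, Tet1 was lower by limma's log2 difference of -1.02 in TKO_26 (adjusted p = 0.0126) and -1.69 in TKO_29 (adjusted p = 0.00282). Tet2 was lower by -1.09 (adjusted p = 0.0104) and -1.90 (adjusted p = 0.00209). Tet3 differed by 1.05 in TKO_26 (adjusted p = 0.100) and -0.62 in TKO_29 (adjusted p = 0.222). Where these probes lie relative to the deleted exons is not known here, so they check the labels only in part. All WT arrays lay in one column of the slide and all TKO arrays in the other, so slide position and genotype cannot be told apart.

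Most of the genes of the heart sarcomere were lower in both TKO lines, while most skeletal isoforms were not called. Signals are log2 values scaled so that 0 is the 75th percentile of an array's well-measured probes, and a difference of 1 is 2-fold. A gene was called when limma's Benjamini-Hochberg adjusted p, taken over all 21421 genes tested, was under 0.05 and the difference at least 2-fold. Of the 34 genes, 31 passed the filter on dim probes and were tested. In TKO_26, 20 of the 31 fell, against a background of 7.79% of all genes tested. In TKO_29, 20 fell, against 11.2%. The same 20 genes fell in both lines, where the background was 6.59%. The lines share the WT arrays, so their counts are not independent of each other. In a bulk culture such as this, fewer heart muscle cells and less RNA per cell cannot be told apart.

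The 20 genes had adjusted p-values of 0.000251 to 0.0239, and their fitted standard errors ran from 0.11 to 0.85 on the log2 scale. One gene, Tnni2, rose in TKO_26, where 5.60% of all genes were called higher. No member was called higher in TKO_29 (background 8.16%) or in both lines (background 4.05%) by limma. At an unadjusted p under 0.05 by limma, 2 members, Tnni2 and Myh3, had a higher signal in each line. The share of all genes at that threshold was not counted, and Myh3 passed the filter through TKO_29 alone. The median difference over the tested members, taken as the mean of the TKO lines, was -2.22, and over all genes tested it was -0.04. In 25 of the 31 every TKO array lay below both WT arrays, as in 25.5% of all genes tested. In 4 every TKO array lay above, as in 24.9% of all genes, and in 2 the arrays overlapped. The filter admits a gene that is bright in 1 line only, so these counts describe the genes that passed it. With no filter, 33 members could be tested and 16 were lower in both lines, against 2.42% of genes.

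When each line counted as 1 replicate (WT n = 1, TKO n = 2), limma called 12 of the 31 members lower, against 0.752% of all genes tested. The count was 0 with quantile normalisation, with either other filter on dim probes and with outlier spots kept. It was also 0 when 1 array was left out, be it WT replicate 1, WT replicate 2, TKO_26 replicate 2 or TKO_29 replicate 2. Line averages hold 1 WT value, and their fit assumes that WT varies like the TKO lines. Unadjusted counts from this fit are left out, since the matching share of all genes was not counted. With arrays as the unit, leaving out any 1 array left 16 to 20 members lower in both lines. The calls lost in this way were those of Actn2, Ldb3, Myh7b, Myl1 and Tmod1, and the 10 cardiac calls were kept each time.

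**Figure D1:**
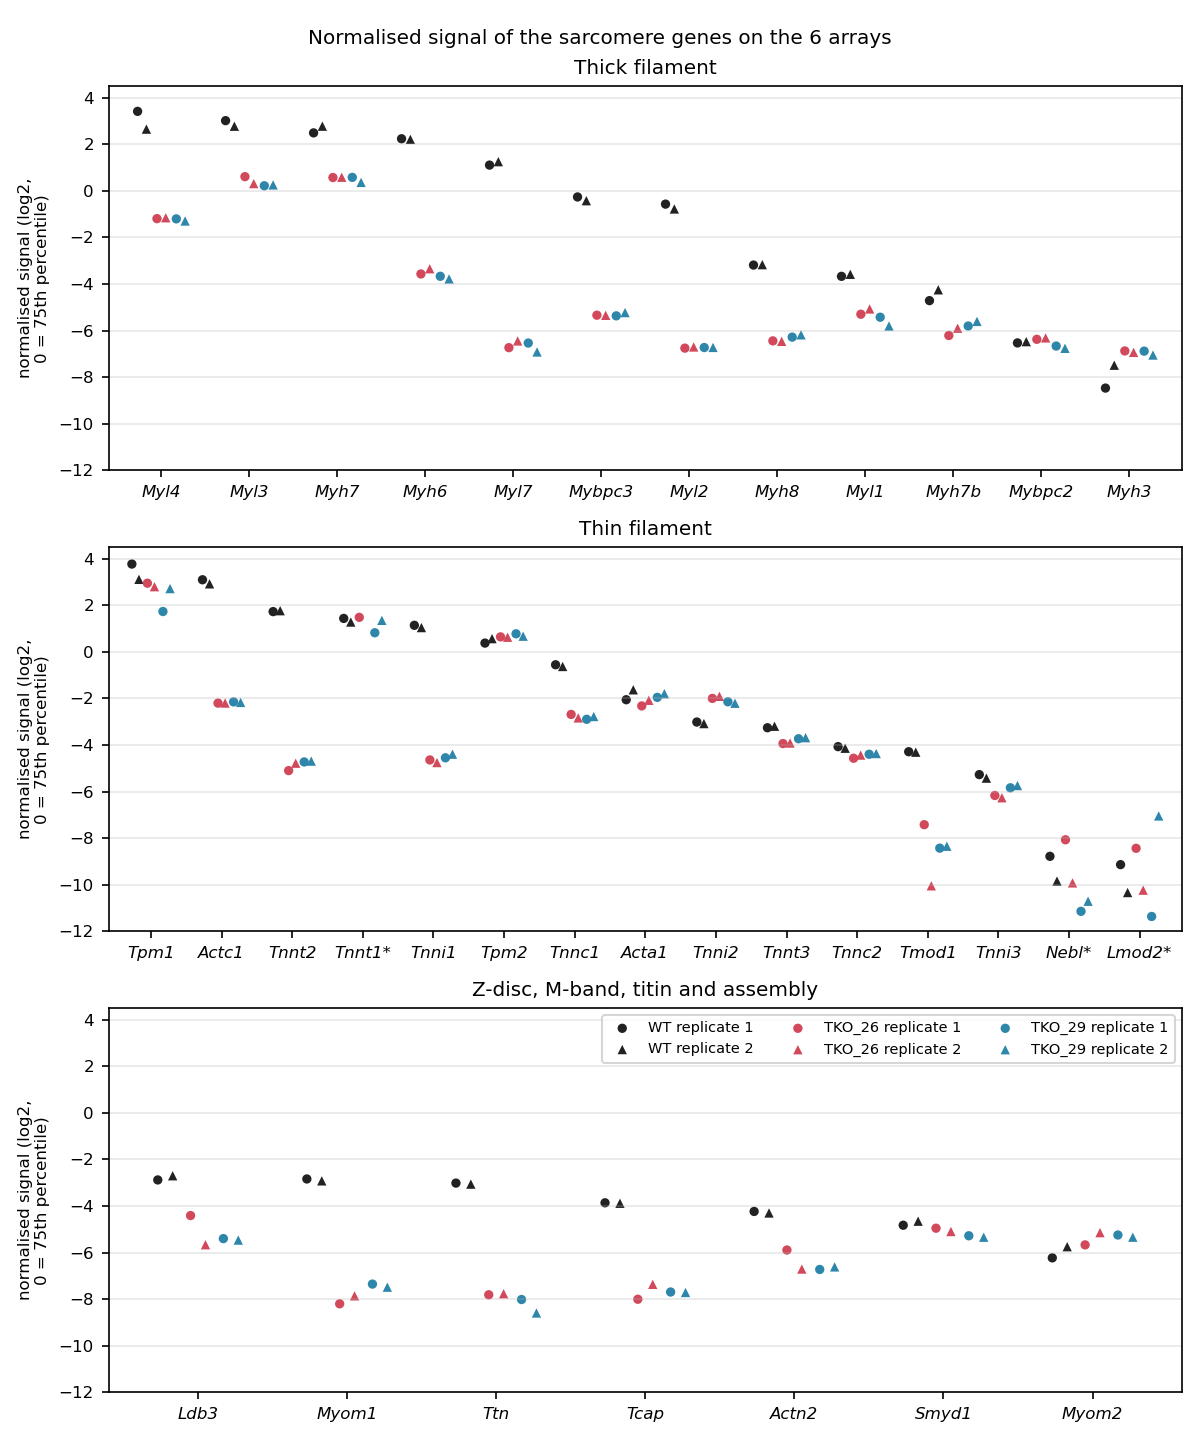
Normalised signal (log2, vertical axis) of each sarcomere gene on the 6 arrays, in panels for the thick filament, the thin filament and the remaining proteins. Each point is 1 array (circle, replicate 1; triangle, replicate 2), genes are sorted by WT signal, and an asterisk marks the 3 genes that were not tested. In 25 of the 31 tested genes all red and blue TKO points lie below both black WT points.

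The test left out 3 of the 34 genes. Nebl, which encodes nebulette of the cardiac Z-disc, was not well above background on any array. Lmod2, which encodes a leiomodin that lengthens cardiac thin filaments, was well above background on 1 array, TKO_29 replicate 2, at a signal of -7.04. Tnnt1, slow skeletal troponin T, was bright, but its only spot on TKO_26 replicate 2 was marked as an outlier by the scanner software. Its signals were 1.43 and 1.28 in WT, 1.48 on the remaining TKO_26 array, and 0.82 and 1.35 in TKO_29, so the lines overlapped. With the marked spot kept, limma gave log2 differences of -0.50 (adjusted p = 0.482) in TKO_26 and -0.27 (adjusted p = 0.659) in TKO_29.

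The stretch before each gene's start was read to see which promoter letters the genes share beyond their names. Promoter windows from RefSeq (GRCm38.p6), 250 bases before the start, were found for 30 of the 34 genes, in 38 windows. Myom2, Tcap, Tnni2 and Tnnt3 had none. The CArG box, the site bound by serum response factor and its cardiac partner myocardin, was found in 8 of 38 windows (21.1%), of 7 genes: Acta1, Actc1, Ldb3, Myl3, Myl7, Myom1 and Nebl. It stood in 1.47% of all 32851 windows. The MEF2 site, bound by myocyte enhancer factors, was found in 7.89% of the members' windows (Mybpc3, Myh8 and Ttn) and 2.92% of all. The letters CATTCC, the core of the element bound by TEAD factors, were in 31.6% of the members' windows and 12.6% of all. TATAAA was in 18.4% and 12.4%. All 4 were searched on both strands, and the MEF2 site and TATAAA of Myh8 overlap in 1 window. The last 120 bases before the start are shown for 8 genes, 5' to 3' on the gene's own strand, with each match to a searched motif in capitals. Actc1 and Acta1 are shown as the pair of sarcomeric actins that share a CArG box and differ in their values. Myl7, Myl3, Myom1 and Ldb3 are further genes with this box, all lower in both TKO lines, and Mybpc3 and Myh8 carry the MEF2 site.
Actc1: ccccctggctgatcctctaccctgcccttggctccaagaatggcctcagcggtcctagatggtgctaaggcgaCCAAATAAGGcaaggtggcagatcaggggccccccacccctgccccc
Acta1: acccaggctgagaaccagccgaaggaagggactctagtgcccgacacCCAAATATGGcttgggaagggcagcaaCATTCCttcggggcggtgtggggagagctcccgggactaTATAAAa
Myl7: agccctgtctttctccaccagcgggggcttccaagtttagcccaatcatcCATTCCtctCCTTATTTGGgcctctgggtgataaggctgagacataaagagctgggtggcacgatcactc
Myl3: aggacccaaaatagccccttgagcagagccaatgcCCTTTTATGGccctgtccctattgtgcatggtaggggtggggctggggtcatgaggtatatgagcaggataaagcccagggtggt
Myom1: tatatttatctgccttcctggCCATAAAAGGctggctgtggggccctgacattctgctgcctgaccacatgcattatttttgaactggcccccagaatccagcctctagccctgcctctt
Ldb3: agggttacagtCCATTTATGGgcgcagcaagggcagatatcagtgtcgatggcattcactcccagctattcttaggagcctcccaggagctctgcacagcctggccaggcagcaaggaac
Mybpc3: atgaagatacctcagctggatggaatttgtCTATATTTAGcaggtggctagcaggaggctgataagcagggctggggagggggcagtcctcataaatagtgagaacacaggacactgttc
Myh8: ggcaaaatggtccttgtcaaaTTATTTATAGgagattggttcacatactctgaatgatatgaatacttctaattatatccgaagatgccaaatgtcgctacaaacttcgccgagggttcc
The windows are Actc1 (chr2:114052876-114052995, minus strand), Acta1 (chr8:123894776-123894895, minus strand), Myl7 (chr11:5898783-5898902, minus strand), Myl3 (chr9:110763558-110763677, plus strand), Myom1 (chr17:71019437-71019556, plus strand), Ldb3 (chr14:34588608-34588727, minus strand), Mybpc3 (chr2:91118024-91118143, plus strand) and Myh8 (chr11:67277004-67277123, plus strand). The first base of the CArG box lay 47 bases before the start in Actc1, 73 in Acta1, 61 in Myl7, 85 in Myl3, 99 in Myom1 and 109 in Ldb3. Ldb3 has another start, from which the same box is 35 bases away. The box was in 6 of 24 windows (25.0%) of genes that fell in both lines and in 2 of 14 (14.3%) of the other members. The other members include the untested genes Nebl, Lmod2 and Tnnt1, and 1 of these 2 windows is that of Nebl. The box of Ldb3 is counted in both windows of that gene. A match describes letters and is not a measured binding site, and these windows were chosen by gene, not by any binding data.

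CG dinucleotides, the sites that Tet enzymes act on when methylated, were few in these windows. The median was 4 per 250 bases for the members and 6 for all windows. Windows with 10 or more made up 15.8% of the members' windows and 37.8% of all. The median was 4.5 for genes that fell in both lines and 4 for the other members, which include the untested genes. Methylation itself was not measured here.

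Among thick filament genes, 10 of 12 tested fell in both lines (background 6.59%), with a median log2 difference of -2.85. Myosin heavy chains are the motors. Myh6, the alpha heavy chain typical of atrial and adult mouse heart, had signals of 2.24 and 2.21 in WT, -3.57 and -3.34 in TKO_26, and -3.67 and -3.78 in TKO_29. It fell 56.2-fold on the mean of the TKO lines (adjusted p = 0.000267 in TKO_26 and 0.000251 in TKO_29). Both TKO lines lay far below WT and close to each other. Myh7, the beta heavy chain of embryonic ventricle and slow skeletal muscle, had 2.49 and 2.77 in WT, 0.57 and 0.58 in TKO_26, and 0.58 and 0.36 in TKO_29. It fell by a smaller factor, 4.31-fold. Myh6 and Myh7 are neighbours on chromosome 14 with no protein-coding gene between them.

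Of the heavy chains named for developing skeletal muscle, Myh8 fell and Myh3 was not called, with a WT signal that left little room to fall. Myh8, the perinatal heavy chain, had -3.19 and -3.17 in WT, -6.44 and -6.46 in TKO_26, and -6.28 and -6.18 in TKO_29, a fall of at least 8.65-fold, since 1 of the TKO arrays was not well above background. A second Myh8 probe was well above background on only 1 array and gives no support either way. Myh3, the embryonic heavy chain, lies on chromosome 11 with 3 genes between it and Myh8: Myh1, Myh2 and Myh4, the adult fast heavy chains. Its signals were -8.47 and -7.48 in WT, -6.87 and -6.93 in TKO_26, and -6.88 and -7.05 in TKO_29. All TKO arrays lay above WT, by 1.07 and 1.01, but limma's adjusted p was 0.0829 in TKO_26 and 0.0734 in TKO_29, and only WT replicate 2 among the WT arrays was well above background. With WT at the background limit the differences were 0.30 and 0.24. Without WT replicate 2 limma called the gene, on a WT value below background, so that call has no weight. A second Myh3 probe differed by 1.20 and 0.95. Myh1, Myh2 and Myh4 were not well above background on any array. Myh7b, an ancestral slow-type heavy chain, had -4.71 and -4.25 in WT, -6.21 and -5.90 in TKO_26, and -5.80 and -5.61 in TKO_29, a fall of at least 2.64-fold. Its call was lost with quantile normalisation and in the authors' deposited values.

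All 5 myosin light chains fell in both lines. Myl7, the atrial regulatory light chain, had the largest difference of any member: 1.1 and 1.25 in WT, -6.73 and -6.44 in TKO_26, and -6.53 and -6.92 in TKO_29. It fell at least 210-fold (adjusted p = 0.000267 and 0.000262). Its ventricular counterpart Myl2, which slow skeletal fibres share, had -0.57 and -0.78 in WT, -6.75 and -6.70 in TKO_26, and -6.73 and -6.72 in TKO_29, a fall of at least 60.7-fold. For both, 3 of the 4 TKO arrays were still well above background, so a low signal remained.

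The essential light chains gave smaller or less certain values. Myl4, the atrial and embryonic essential light chain, had 3.41 and 2.65 in WT, -1.19 and -1.16 in TKO_26, and -1.20 and -1.29 in TKO_29. Both WT spots were saturated, so its fall was at least 18.9-fold. Myl3, the ventricular and slow form, had 3.01 and 2.77 in WT, with 1 of these spots saturated, 0.61 and 0.31 in TKO_26, and 0.22 and 0.25 in TKO_29, and fell 5.84-fold. Myl1, the fast skeletal form, which is also made early in the embryonic heart, had -3.67 and -3.58 in WT, -5.30 and -5.07 in TKO_26, and -5.42 and -5.80 in TKO_29, and fell 3.41-fold. A second Myl1 probe was well above background on 1 WT and 1 TKO array only, with differences of 1.27 and -2.40. In both the regulatory and the essential class, the atrial and the ventricular form fell.

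Myosin-binding protein C stabilises the thick filament. Mybpc3, the cardiac form, had -0.26 and -0.42 in WT, -5.34 and -5.34 in TKO_26, and -5.37 and -5.23 in TKO_29, and fell 31.4-fold. Mybpc2, the fast skeletal form, had -6.53 and -6.47 in WT, -6.37 and -6.31 in TKO_26, and -6.66 and -6.76 in TKO_29. TKO_26 lay above WT and TKO_29 below, with limma's adjusted p of 0.383 and 0.203, and the sign of its mean difference turned under other scalings of the arrays.

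Thin filament genes gave a divided picture: 5 of the 12 tested fell in both lines (background 6.59%), with a median difference of -0.77. The sarcomeric actins differed in response. Actc1, cardiac alpha-actin, had 3.09 and 2.92 in WT, -2.20 and -2.20 in TKO_26, and -2.15 and -2.17 in TKO_29. It fell 36.4-fold (adjusted p = 0.000267 and 0.000261), with 1 WT spot saturated. Acta1, skeletal alpha-actin, had -2.06 and -1.63 in WT, -2.32 and -2.08 in TKO_26, and -1.95 and -1.80 in TKO_29. Its TKO and WT arrays overlapped, and the differences were -0.36 (adjusted p = 0.256) and -0.03 (adjusted p = 0.909), with the mean changing sign without WT replicate 2. Both promoters hold a CArG box, as their sequences show.

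The troponin complex has 3 subunits: troponin T binds tropomyosin, troponin I blocks myosin binding, and troponin C binds calcium. Tnnt2, cardiac troponin T, had 1.73 and 1.77 in WT, -5.10 and -4.78 in TKO_26, and -4.73 and -4.69 in TKO_29, and fell 95.0-fold, the largest measured fold of the thin filament. Tnnt3, fast skeletal troponin T, had -3.26 and -3.19 in WT, -3.94 and -3.91 in TKO_26, and -3.73 and -3.68 in TKO_29. All its TKO arrays lay below WT by less than 2-fold, with differences of -0.70 (adjusted p = 0.0146) and -0.48 (adjusted p = 0.0286). A second Tnnt3 probe gave -0.75 and -0.76. Slow Tnnt1 showed overlapping arrays.

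Troponin I split by isoform. Tnni1, slow skeletal troponin I and the main form of the embryonic heart, had 1.14 and 1.04 in WT, -4.64 and -4.75 in TKO_26, and -4.55 and -4.39 in TKO_29, and fell 51.0-fold. Tnni3, the cardiac form that replaces it later in development, was low in every line. Its signals were -5.27 and -5.42 in WT, -6.16 and -6.26 in TKO_26, and -5.83 and -5.74 in TKO_29, and it was the 1 tested cardiac isoform not called, with differences of -0.87 (adjusted p = 0.0114) and -0.44 (adjusted p = 0.0504). Tnni2, fast skeletal troponin I, moved the other way: -3.01 and -3.08 in WT, -2.00 and -1.91 in TKO_26, and -2.14 and -2.21 in TKO_29. It rose in TKO_26 by 1.09 (SE 0.12, adjusted p = 0.00489), and this call was lost with normexp background correction (0.97) and with no filter (adjusted p = 0.0502). In TKO_29 its difference of 0.87 (adjusted p = 0.00691) stayed under 2-fold, and the lines did not differ from each other by limma (adjusted p = 0.288). Every TKO array lay above both WT arrays.

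Troponin C showed the same division. Tnnc1, the cardiac and slow form, had -0.56 and -0.63 in WT, -2.69 and -2.84 in TKO_26, and -2.90 and -2.78 in TKO_29, and fell 4.62-fold. Tnnc2, the fast form, had -4.07 and -4.14 in WT, -4.57 and -4.43 in TKO_26, and -4.40 and -4.37 in TKO_29, with differences of -0.40 (adjusted p = 0.0749) and -0.28 (adjusted p = 0.123).

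Troponin T and troponin I genes lie in pairs on the chromosomes. Tnnt2 and Tnni1 lie on chromosome 1 with 1 gene, Lad1, between them, and fell 95.0-fold and 51.0-fold. Tnnt3 and Tnni2 lie on chromosome 7 with 1 gene, Lsp1, between them, and had differences of opposite sign. Tnnt1 and Tnni3 are adjacent on chromosome 7, and neither was called.

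**Figure D2:**
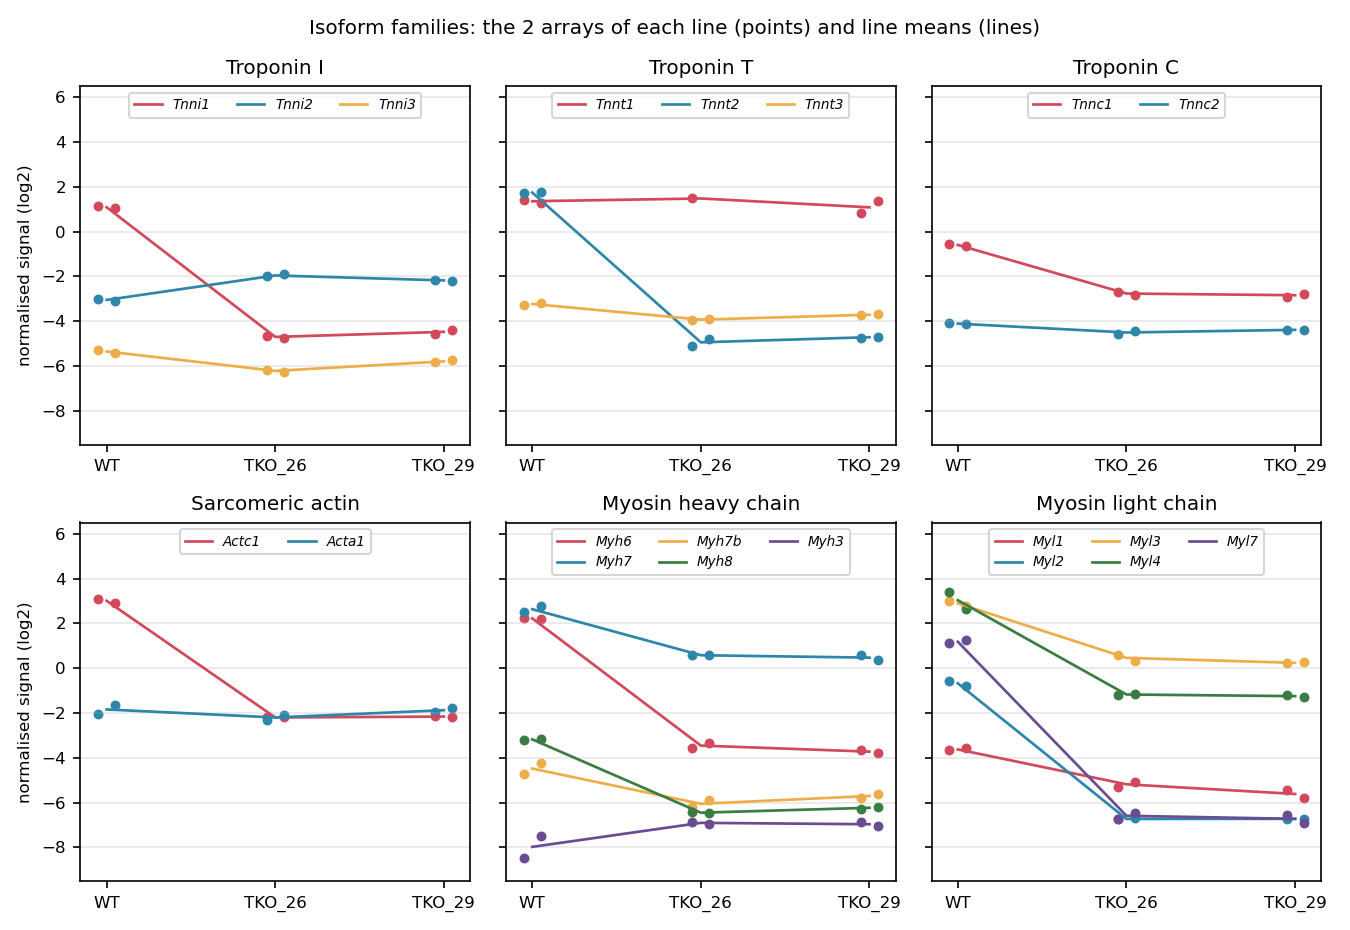
Normalised signal (log2, vertical axis) in WT, TKO_26 and TKO_29 for 6 families of isoforms; points are the 2 arrays of a line and lines join the line means. The lines of Tnni1, Tnnt2, Actc1, Myh6 and Myl7 drop steeply from WT to the TKO lines, while those of Tnnt3, Tnnc2 and Acta1 stay within 2-fold of WT and that of Tnni2 goes up.

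Tropomyosin lies along the actin filament. Tpm1, which muscle and other cells make as different splice forms, was saturated on both WT arrays and on 3 TKO arrays at its brightest probe: 3.77 and 3.11 in WT, 2.95 and 2.80 in TKO_26, and 1.73 and 2.71 in TKO_29. The differences there were -0.57 (adjusted p = 0.360) and -1.22 (adjusted p = 0.0697). The low value was TKO_29 replicate 1, on which the highest scaled signal of any probe was 1.79, against 2.84 to 4.72 on the other arrays. A second, partly saturated Tpm1 probe gave -0.68 and -1.18. The 3 unsaturated Tpm1 probes differed in sign: 0.04 and 0.64, -0.18 and 0.22, and -0.24 and -0.19. No direction can be given for Tpm1 from these probes. Tpm2, beta-tropomyosin, had 0.38 and 0.57 in WT, 0.64 and 0.63 in TKO_26, and 0.77 and 0.67 in TKO_29, with differences of 0.16 (adjusted p = 0.415) and 0.25 (adjusted p = 0.176).

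Tmod1, which encodes tropomodulin, the cap of the thin filament's pointed end, had -4.29 and -4.31 in WT, -7.42 and -10.04 in TKO_26, and -8.43 and -8.34 in TKO_29. The fall was at least 12.7-fold, with 2 of the 4 TKO arrays well above background. Its TKO_26 arrays lay 2.62 apart, the widest gap of any member, and its standard error of 0.85 was the highest among the called genes.

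Of the 7 genes of titin, the Z-disc, the M-band and assembly, 5 fell in both lines (background 6.59%) and the median difference was -2.44. Ttn, which encodes titin, the molecular spring of the sarcomere, had -3.02 and -3.06 in WT, -7.81 and -7.76 in TKO_26, and -8.01 and -8.59 in TKO_29, a fall of at least 24.5-fold. The 3 further Ttn probes were well above background on at most 1 WT array each and were not tested. Of these, 1 had -6.72 and -6.85 in WT and a higher -4.41 on TKO_26 replicate 1. On the other TKO arrays it had -11.23 to -10.00, not well above background. Tcap, the titin cap at the Z-disc, had -3.86 and -3.88 in WT and -8.00 to -7.36 on the 4 TKO arrays, a fall of at least 10.4-fold. Actn2, which encodes the alpha-actinin that cross-links thin filaments at the Z-disc, had -4.23 and -4.30 in WT, -5.89 and -6.71 in TKO_26, and -6.72 and -6.61 in TKO_29, and fell 4.65-fold, a call lost with normexp background correction. Ldb3, a PDZ protein that binds alpha-actinin there, had -2.88 and -2.70 in WT, -4.41 and -5.66 in TKO_26, and -5.40 and -5.46 in TKO_29, and fell 5.43-fold. A second Ldb3 probe gave -1.79 and -2.65. For Actn2 and Ldb3 the noisy TKO_26 replicate 1 was the highest of the TKO arrays.

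The M-band proteins divided like the isoform families. Myom1, myomesin 1, found in all striated muscle, had -2.84 and -2.92 in WT, -8.20 and -7.86 in TKO_26, and -7.35 and -7.48 in TKO_29. It fell at least 20.4-fold, with 2 of 4 TKO arrays well above background. Myom2, the M-protein of fast fibres and adult heart, had -6.23 and -5.75 in WT, -5.67 and -5.14 in TKO_26, and -5.24 and -5.34 in TKO_29. Every TKO array was above both WT arrays, but the differences of 0.58 (adjusted p = 0.170) and 0.70 (adjusted p = 0.0876) did not pass. Smyd1, a muscle methyltransferase needed for myosin assembly, had -4.82 and -4.65 in WT, -4.95 and -5.09 in TKO_26, and -5.28 and -5.34 in TKO_29. Its differences were -0.29 (adjusted p = 0.187) and -0.57 (adjusted p = 0.0283), under 2-fold, and a second, dim probe gave -1.48 and -2.84 with no TKO array well above background.

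**Figure D3:**
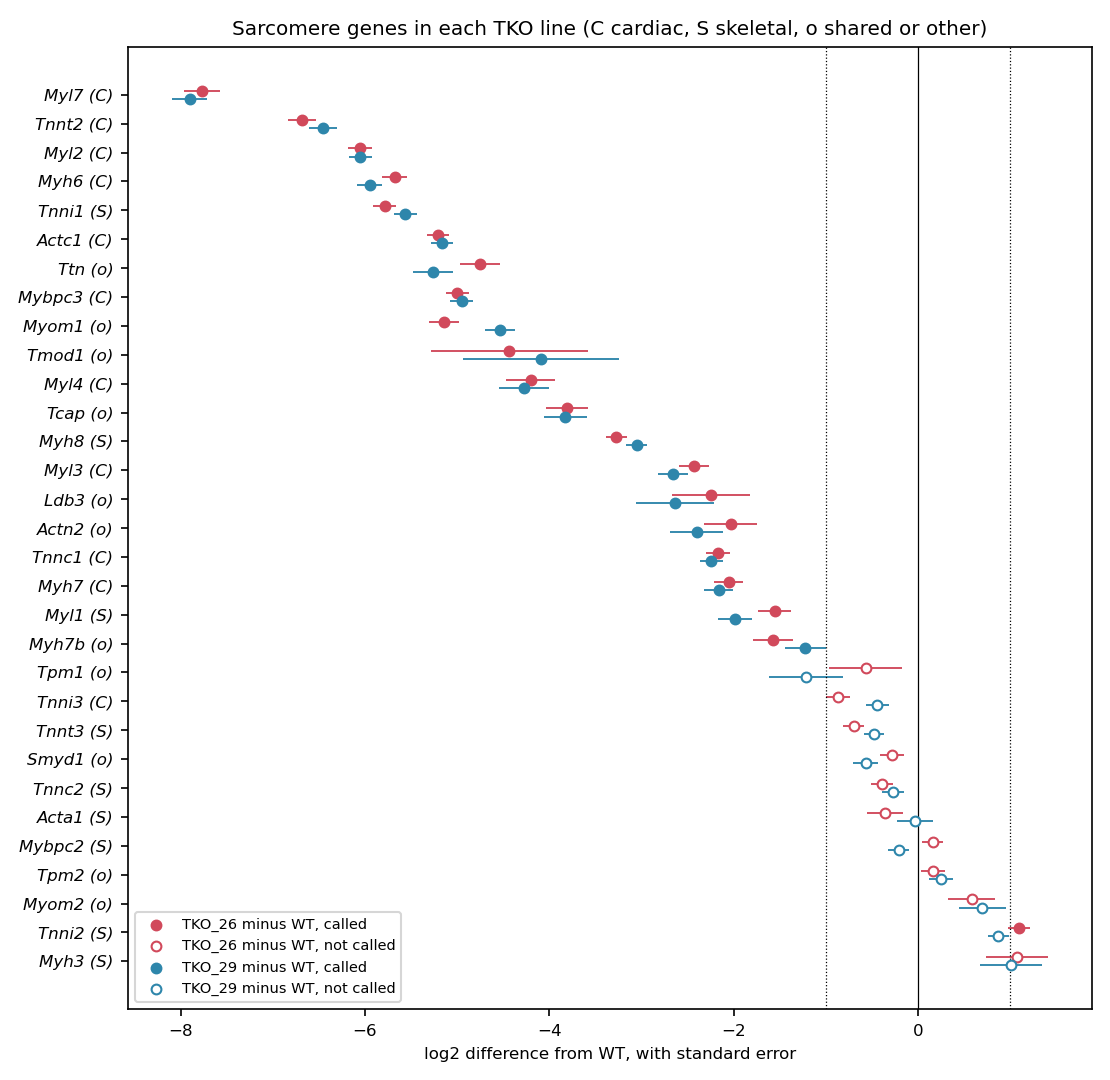
Log2 difference from WT (horizontal axis) of the 31 tested genes in TKO_26 (red) and TKO_29 (blue), with limma's standard errors as bars. Filled points were called, dotted lines mark 2-fold, and C, S and o mark cardiac, skeletal and shared or other genes. Cardiac isoforms run from Myl7 at the top, at -7.77 and -7.90, to Tnni3, at -0.87 and -0.44, with other genes among them. The skeletal isoforms spread from Tnni1, at -5.79 and -5.56, to Tnni2 and Myh3 at the bottom.

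Sorted by isoform, 10 of the 11 tested cardiac genes fell in both lines (background 6.59%), with a median difference of -4.97. Of the 9 tested skeletal genes 3 fell, Tnni1, Myh8 and Myl1, with a median of -0.34. The WT means of the uncalled Myh3 (-7.98) and Mybpc2 (-6.50) lay below the background limit of TKO_26 replicate 1 (-6.24). These genes thus had little room to fall. Among the 11 shared or other genes 7 fell, with a median of -2.22. Without WT replicate 2, or without TKO_29 replicate 2, 3 of these shared genes fell, and without WT replicate 1 or TKO_29 replicate 1 the number was 4. The mean signal of the cardiac genes was 0.95 and 0.83 on the WT arrays and between -3.52 and -3.47 on the TKO arrays. That of the skeletal genes was -3.68 and -3.52 in WT and between -4.72 and -4.65 in the TKO lines. The skeletal genes thus had less room to fall, and the difference between the classes was not tested.

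Slow and fast isoforms divided likewise, against the same background of 6.59%. All 6 tested slow genes fell (Myl2, Myl3, Myh7, Myh7b, Tnni1 and Tnnc1), with a median of -2.38, but Myl2, Myl3, Myh7 and Tnnc1 also serve the heart. The untested slow gene Tnnt1, which is not a cardiac form, showed overlapping arrays. Of the 5 fast genes, Myl1 fell, Tnni2 rose in TKO_26, and Tnnt3, Tnnc2 and Mybpc2 were not called, with a median of -0.34 over the 5. The limit given above for Mybpc2 holds here too.

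The TKO lines gave nearly the same values for these genes. No member was called between TKO_26 and TKO_29 by limma, as was no other gene. At an unadjusted p under 0.05 there were 3 of 31 members and 4787 of 21421 genes. The lowest adjusted p of a member was 0.133, for Myom1, whose TKO_29 signal was 0.61 above TKO_26 with both TKO_26 arrays not well above background. TKO_29 minus TKO_26 ran from -0.65 for Tpm1 to 0.61, with a median size of 0.22 over the members and 0.31 over all genes tested. Arrays of 1 line differed by a median of 0.15 in WT, 0.14 in TKO_26 and 0.10 in TKO_29 over the members.

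Fewer of the other sarcomere genes, from a list that leaves out the 34, were called. Of 44 listed, 31 were tested and 11 fell in both lines (background 6.59%), with a median of -0.66. Among those called, the lowest fitted differences were those of Hspb7, Csrp3, Unc45b and Myom3, all with some TKO arrays not well above background. For Hspb7 this was every TKO array, so it passed the filter through WT alone. Hspb7, a small heat shock protein of heart and muscle, fell at least 8.49-fold, and Csrp3, a Z-disc LIM protein, at least 15.8-fold. Unc45b, the myosin chaperone, fell at least 15.6-fold, and Myom3, another myomesin, at least 5.76-fold. Fhod3, a formin of the heart sarcomere named after its values were seen, fell 7.01-fold with all 6 arrays well above background. The cytoplasmic counterparts, actins, myosins, tropomyosins and actinins that most cells use, had 12 tested genes. A spot was saturated on 1 or more arrays for 8 of them, and on all 6 arrays for 2, so no median is given. Of the 4 with no saturated spot, Tmod3, the widely expressed tropomodulin, fell 3.14-fold, and Actn1, Myh10 and Myh14 were not called.

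Regulators of the cells that make sarcomeres were read on the same arrays. Of 9 transcription factors and coactivators of the heart, 7 fell in both lines (background 6.59%). The list's median was -3.16, or -2.74 with dim genes at the background limit. Hand2 (at least 92.0-fold), Myocd, the serum response factor partner myocardin (26.4-fold), Mef2c (at least 6.56-fold) and Hand1 (16.4-fold) had the lowest fitted differences, with all 4 TKO arrays of Mef2c too dim to measure. Tbx20 and Nkx2-5, named after their values were seen, fell 8.94-fold and 6.68-fold on probes well above background on all 6 arrays. Their mean signal was -2.46 and -2.41 in WT and between -6.28 and -5.31 on the TKO arrays. Of 10 genes of muscle excitation and calcium handling, 7 were tested and 4 fell: Nppa (at least 19.2-fold) and Nppb (3.59-fold), which encode natriuretic peptides, Ryr2, the cardiac calcium release channel (at least 4.75-fold), and Atp2a2, the cardiac calcium pump (2.16-fold). A second Atp2a2 probe, well above background on all 6 arrays, went the other way (0.42 in TKO_26 and 1.58 in TKO_29), so no direction is given for this gene. The remaining 3, Ryr1, Atp2a1 and Casq2, had every TKO array above WT, as in 24.9% of all genes tested. No WT or TKO_26 array of Casq2 was well above background. With WT at the background limit its differences were -0.15 and -0.28. Atp2a1, the fast skeletal calcium pump, rose in TKO_29 by 1.63 (limma's adjusted p = 0.0146), where 8.16% of all genes were called higher. Only 1 WT array of Atp2a1 was well above background. The part of fewer heart cells in the fall of the sarcomere genes was not tested.

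Few skeletal muscle markers had a WT signal from which a fall could be seen. Of 11 listed, 5 were tested and none was called lower in both lines (background 6.59%). Pax7 and Chrna1 were not well above background on any WT array and passed the filter through TKO_29 alone, so they could not fall. Called higher in both lines (background 4.05%) were 2, Pax3 by 1.98 and 1.67, and Pax7 by at least 1.52-fold on the mean of the lines. Both are factors of muscle and neural progenitors. With WT at the background limit Pax7 was higher by 1.29-fold in TKO_26 and 1.80-fold in TKO_29. These folds are under 2-fold, so the call of Pax7 has no weight. At an unadjusted p under 0.05, too, limma found 0 of the 5 lower in both lines, with the same limit for Pax7 and Chrna1. The factors that define skeletal muscle, Myod1, Myog, Myf5 and Myf6, were not well above background on any array, so no fall could be seen. Mean signal of the 5 tested was -5.92 and -6.15 in WT and between -5.43 and -4.76 in the TKO lines. With Pax7 and the other dim genes at the background limit, the list's median difference was 0.21 in place of 1.08.

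Smooth muscle and endothelium also form in such cultures. Of 9 smooth muscle genes 7 were tested and 2 fell in both lines (background 6.59%), the actins Actg2 (at least 14.3-fold) and Acta2 (at least 3.99-fold). The mean signal of the list was -0.06 and -0.17 in WT and between -1.41 and -0.997 in the TKO lines. Endothelial genes fell in 3 of 4 (background 6.59%): Tie1 (at least 73.9-fold), Cdh5 (at least 57.0-fold) and Tek (at least 6.87-fold). No TKO array of Tie1 was well above background, so this gene passed the filter through WT alone. The fourth, Pecam1, was well above background on all 6 arrays and differed the other way, by 0.46 and 0.57. Its WT and TKO arrays overlapped, and it was not called. Of 5 pluripotency genes 2 were called higher in both lines (background 4.05%), Nanog by 4.06-fold and Sox2 by 2.33-fold. A second Nanog probe, though, differed by 0.18 and -0.48. Esrrb was called higher in TKO_26 only (background 5.60%), by 1.01, against 0.45 in TKO_29. Pou5f1 was not called, with differences of 0.22 and 0.60. Zfp42 of the same list lay lower on every TKO array, by -0.98 (adjusted p = 0.0549) and -0.93 (adjusted p = 0.0467), and was not called. Their part in the sarcomere differences was not tested.

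**Figure D4:**
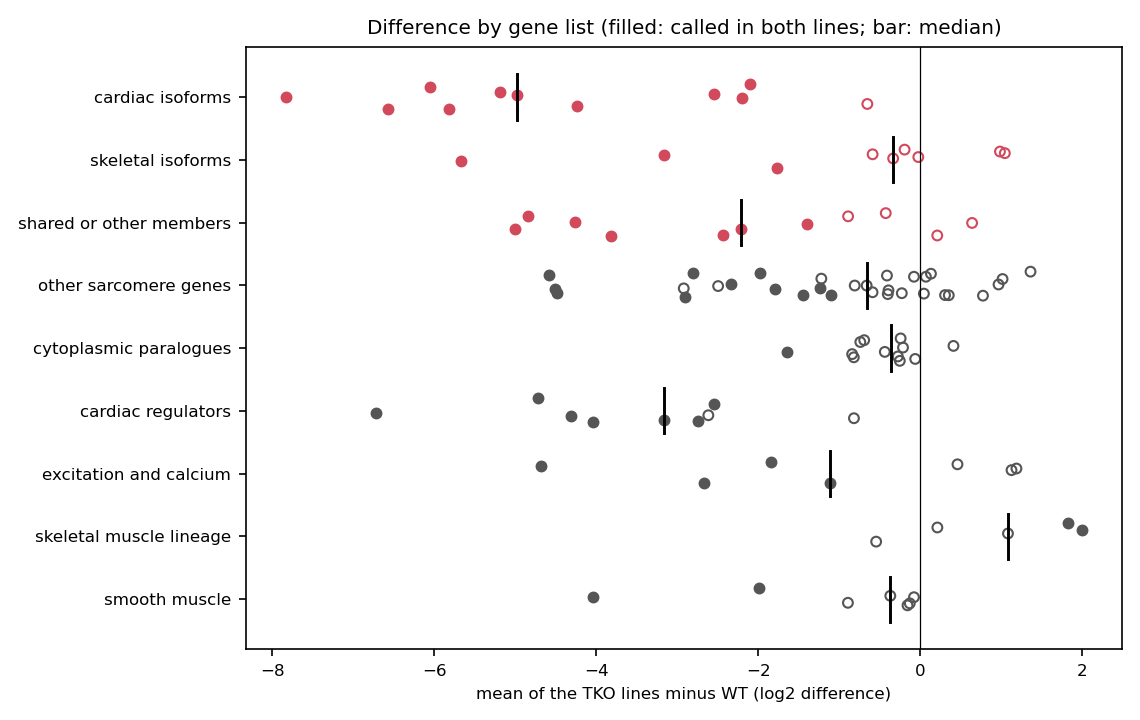
Mean of the TKO lines minus WT (log2, horizontal axis) for each tested gene of the 3 groups of sarcomere genes (red) and 6 further lists (grey). Filled points were called in both lines and black bars are medians. Cardiac isoforms have the lowest median, -4.97. Cardiac regulators have a median of -3.16, or -2.74 with dim genes at the background limit. The skeletal lineage list is the one with a median above 0, at 1.08, or 0.21 with dim genes at the background limit. The bar of the cytoplasmic paralogues includes saturated probes.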

How the data were processed

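Cy3-labelled cRNA made from total RNA of the embryoid bodies was measured on Agilent mouse arrays of 1 colour, 2 per line, per the labels' protocols. The deposited scanner files hold a processed intensity per spot, made with Feature Extraction 10.5.1.1 per the file headers, background-subtracted and not normalised between arrays. The authors also deposited a table of log2 values, made by steps not given in the sources used here. It followed the log2 median signal of the arrays (Pearson r 0.995 to 1.00 with each column's own array), was not centred per gene, had medians of 6.86 to 6.89, and hardly told TKO_29 replicate 1 apart (0.996 with its own and 0.996 with another array). It served as an alternative. No counts or depth exist for arrays, and their number limits the precision.

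Spots marked as outliers were removed (263 probes lost), saturated spots kept, repeated spots averaged, and log2 signals scaled to the array's 75th percentile. That percentile was taken over 19178 probes, those well above background on every array. A probe was tested where both arrays of 1 or more lines were well above background. The brightest such probe stood for its gene. Names came from a RefSeq table (GRCm38.p6) by unversioned accession, which matched 27509 of 55681 probes (49.4%). No coordinates were taken from that table, only gene order; the array design names another build. Promoter sequences and their coordinates are those of the RefSeq promoter table.

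limma 3.58.1 in R 4.3.3 (lmFit, eBayes) fitted 6 arrays in 3 groups (3 residual degrees of freedom), with line averages (1 residual degree of freedom, WT assumed to vary like the TKO lines) as a further test. A fold is "at least" where a spot of the dimmer group was not well above background, or where both WT spots were saturated: the bright mean was then set against a floor, which on each array is the lowest signal called well above background or, if higher, the probe's signal. The fit was tested on simulated data. Alternatives were normexp (offset 50) on the median signals, other percentile, quantile normalisation, other filters, mean of probes, intensity trend, replicate block, outlier spots kept, and each array left out. Normexp on median signals and keeping outlier spots were chosen after seeing the data.

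All 34 genes are named, with every array's value for isoform pairs, the largest of each group, genes not called and genes whose probes disagree. Of other lists, the rule was to name at most 4 genes, the largest among those called, and some lists name further genes. The members, lists and this rule were chosen with earlier results of these data known. Figures used Python 3.11.15 with matplotlib 3.10.9.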

Additional observations from a re-analysis of the deposited data

How the results depend on the processing

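Members lower in both lines numbered 20, as they did in TKO_26 and in TKO_29. With probes well above background on all 6 arrays only, each of these 3 counts was 12 of 20 tested members. The 12 are those of the 20 genes that this stricter filter admits, and fewer genes tested accounts for the change. Shared or other members called numbered 7, against 3 with no filter, 2 with the stricter filter, and 3 to 7 with 1 array left out. The count on line averages was 12. It was 0 with quantile normalisation, 0 with no filter, 0 with the stricter filter, 0 with outlier spots kept, 19 in the authors' deposited values, and 0 to 14 with 1 array left out; the cause was not tested. With 1 array left out, counts ran from 16 to 20 in each line and in both, 10 to 10 for cardiac genes, 2 to 3 for skeletal genes, and 0 to 0 between the TKO lines.

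No called member changed sign under any alternative. Among members not called, the mean difference of Mybpc2 reversed to 0.051 with the percentile over all probes and to 0.033 with quantile normalisation, and ran from -0.053 to 0.00084 with 1 array left out. That of Acta1 ran from -0.41 to 0.017, above 0 without WT replicate 2. Over all genes called in both lines 62.0% were lower, and 74.4% with normexp. Replicate numbers did not pair the samples: deviations of same-numbered arrays correlated at 0.17 (WT and TKO_26), -0.16 (WT and TKO_29) and -0.23 (TKO_26 and TKO_29). With the replicate number as a block, 20 members were lower in both lines and no call changed. A dim or saturated probe limits folds: 9 of the 20 are lower bounds, that of Myl4 through saturated WT spots.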
